A study of Homo sapiens with 4 samples.

Results

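The genes of DNA repair were followed in MDA-MB-231 cells, a triple-negative line established from breast adenocarcinoma, after 24 h with recombinant human LRG1 (rhLRG1). LRG1 is a secreted leucine-rich glycoprotein. The repair genes were taken by name from an oligonucleotide array of cancer-related genes, as every spot whose gene name begins with ERCC, XRCC, LIG, MSH, MLH, PMS, FANC, POL or APEX, with RAD and a digit, or is one of a short list of further repair names such as ATM, BRCA1, BRCA2, BLM and OGG1. This gave 56 probes of 54 genes, read from 114 spots, out of 1856 gene probes and 3786 gene spots. The name rule also took in POLR2B and POLR2J2, which are subunits of RNA polymerase and not of a repair complex. They are counted among the 56 probes and described apart. One group was cultured for 24 h with 100 ng/mL rhLRG1 in serum-supplemented RPMI medium (2 cultures, replicates 2 and 3), and the other was left in that medium for 24 h without rhLRG1 (2 cultures, replicates 2 and 3). The cultures of the same number shared an array, on which rhLRG1-treated RNA carried Alexa 647 and untreated RNA Alexa 555. The dyes were not exchanged, so an effect of the dye and an effect of rhLRG1 cannot be told apart in any ratio given here.

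Cells mend their DNA by several routes that divide the work by the kind of damage. Base excision repair removes small damaged bases and ends with the sealing of a nick by the LIG1 or the XRCC1-LIG3 ligase. Nucleotide excision repair cuts out bulky adducts, and mismatch repair corrects errors of copying. Breaks of both strands are joined directly by non-homologous end joining or copied from the sister chromatid by homologous recombination, in which BRCA1 and BRCA2 act. The Fanconi anemia proteins handle crosslinks between the strands, and RAD18 marks stalled replication forks for bypass by translesion polymerases. Loss of BRCA1 function is a known feature of many triple-negative tumours.

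The promoters printed here belong to 4 genes with called probes. In these probes the levels of both rhLRG1-treated samples lay on the same side of both untreated samples. LIG3, by 1 of its 2 probes, and ATM were the lower pair, and FANCE and RAD18 the higher pair. None passed an adjusted p of 0.05 by limma. The choice was by overlap, not by how well a call held under other settings. Each window runs from 250 bases before to 50 bases after the start of the gene in RefSeq (GRCh38.p14) and is written 5′ to 3′ along the strand of the gene. Capitals mark the GC-rich run GGCGGG and the CCAAT box CCAAT, both searched on either strand. Other GC-rich runs, such as GGGCGG, were not searched. A match is only a run of letters and no evidence of binding.
LIG3, chr17:34980262-34980561, plus strand: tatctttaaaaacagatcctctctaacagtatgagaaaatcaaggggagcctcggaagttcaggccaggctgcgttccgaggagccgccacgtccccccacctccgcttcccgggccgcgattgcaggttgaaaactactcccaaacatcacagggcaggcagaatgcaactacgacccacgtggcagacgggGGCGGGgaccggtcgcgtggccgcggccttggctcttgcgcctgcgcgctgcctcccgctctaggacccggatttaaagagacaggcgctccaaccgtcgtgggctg
ATM, chr11:108223075-108223374, plus strand: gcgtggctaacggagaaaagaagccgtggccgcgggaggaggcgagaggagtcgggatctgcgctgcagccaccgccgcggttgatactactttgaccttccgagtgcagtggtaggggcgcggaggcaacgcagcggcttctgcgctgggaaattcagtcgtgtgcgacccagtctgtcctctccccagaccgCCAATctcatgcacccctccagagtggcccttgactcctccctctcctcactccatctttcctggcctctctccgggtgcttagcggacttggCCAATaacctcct
FANCE, chr6:35452088-35452387, plus strand: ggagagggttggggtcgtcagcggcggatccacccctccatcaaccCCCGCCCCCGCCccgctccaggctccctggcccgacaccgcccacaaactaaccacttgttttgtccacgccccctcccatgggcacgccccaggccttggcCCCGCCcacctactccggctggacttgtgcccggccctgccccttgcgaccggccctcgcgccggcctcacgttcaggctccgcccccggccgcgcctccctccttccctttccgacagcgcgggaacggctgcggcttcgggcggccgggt
RAD18, chr3:8963423-8963722, minus strand: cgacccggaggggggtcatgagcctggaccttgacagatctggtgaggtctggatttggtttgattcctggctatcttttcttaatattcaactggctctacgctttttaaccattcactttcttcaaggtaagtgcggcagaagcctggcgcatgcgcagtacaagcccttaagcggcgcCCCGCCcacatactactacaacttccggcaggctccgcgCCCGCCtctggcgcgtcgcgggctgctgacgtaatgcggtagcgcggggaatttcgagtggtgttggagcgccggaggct
FANCE held 3 GGCGGG runs and 31 CpG dinucleotides, RAD18 held 2 and 24, and LIG3 held 1 and 26. ATM held no GGCGGG run but 2 CCAAT boxes, with 22 CpG dinucleotides. The higher and the lower pair both included promoters with the GGCGGG run. In all, 44 of the 54 repair genes had a window in the table. Of these, 72.7% held a GGCGGG run and 45.5% a CCAAT box, beside 45% and 34.6% of all 35116 promoters of that length. The E2F motifs TTTGGCGC and TTTCCCGC, searched on both strands, were in 4 of the 44 (9.09%) and in 2.27% of all promoters, and they were in none of the 4 windows shown. The median repair promoter held 27 CpG dinucleotides and the median of all promoters 14.

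On each array the rhLRG1 channel was dimmer than the untreated channel and stood less far above its local background. Over all gene spots the median foreground was 397 and 319 in rhLRG1-treated samples (replicates 2 and 3), against 508 and 425 in untreated samples. The median foreground over local background of the repair probes was 3.91 and 2.75 in the rhLRG1-treated samples of replicates 2 and 3, against 8.69 and 5.97 in the untreated ones. Under 2 times the background lay 13 and 20 of the 56 probes in the rhLRG1-treated samples and 1 and 1 in the untreated samples. In every sample all 56 had at least 1 spot more than 2 SD above the background. So did the array's 3 leukocyte probes, PTPRC and CD3G among them, and its endothelial probe, genes that a carcinoma line should lack. The labelled cell type could therefore not be checked by presence or absence on this array. CD3G was called higher (Z ratio 2.38) and the progesterone receptor PGR lower (Z ratio -1.60), at a foreground of 1.18 to 1.58 times the background for CD3G. Of the 11 marker probes these 2 were called, none was at 0, and their part in the results was not tested. Scanned intensities were corrected by normexp (offset 50) and loess within each array, and a ratio is always that of rhLRG1-treated over untreated cells on the log2 scale. Without the loess step the median ratio of all gene probes was -0.42 on replicate 2 and -0.21 on replicate 3 (mean -0.31), so every ratio here is relative to the other genes of the array.

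Of the 56 repair probes, 9 (16.1%) were called by the Z ratio, 4 higher and 5 lower in rhLRG1-treated cells. XRCC1, RAD51L1, FANCE and RAD18 were called higher, and LIG3 (by 1 of its 2 probes), BLM, MRE11A, RAD54B and ATM were called lower. Over the whole array 13.4% of gene probes were called, 6.73% higher and 6.63% lower, and the repair probes stood at 7.14% and 8.93%. The Z ratio scales the log10 intensities of each channel to their mean and SD over all gene probes, takes the difference of the group means and divides it by the SD of all such differences. A call is a value beyond 1.5, the threshold in the methods, and it carries no measure of the spread between cultures.

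By limma on the 2 array ratios, none of the 56 probes passed a Benjamini-Hochberg adjusted p of 0.05 (smallest 0.143), nor did any gene probe of the array (0%, smallest 0.124). At an unadjusted p under 0.05 stood 12 repair probes (21.4%), 6 above and 6 below 0, beside 23.3% of all gene probes. The mean ratios were small. They ran between -0.33 and 0.32, which is at most 1.26-fold in size, but this bound belongs to normexp with loess. The ratios ran between -0.54 and 0.46 under median centring, -0.62 and 1.23 with plain subtraction of the background, and -0.54 and 0.97 with the deposited net intensities. The median was 0.010 for the repair probes and -0.0061 for all gene probes. Above 0 lay 29 repair probes and below it 27, but 20 and 36 when median centring took the place of loess. Both ratios had the same sign for 40 of the 56 (71.4%), beside 75.3% of all gene probes. The 2 groups' levels did not overlap for 9 repair probes (16.1%), beside 10.2% of all gene probes, and for 4 of the 9 called ones (7.14% of the 56, beside 2.86% of all gene probes for a call without overlap). Replicates 2 and 3 correlated across the repair probes at Pearson's r = 0.654 (Spearman's rho 0.615), and across all gene probes at 0.633 (0.641). Probes are not independent replicates, and the 2 values of an array share its dyes and hybridisation. The SD of the repair ratios was 0.216 on replicate 2 and 0.119 on replicate 3, so the first array gave the wider ratios.

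**Figure D1:**
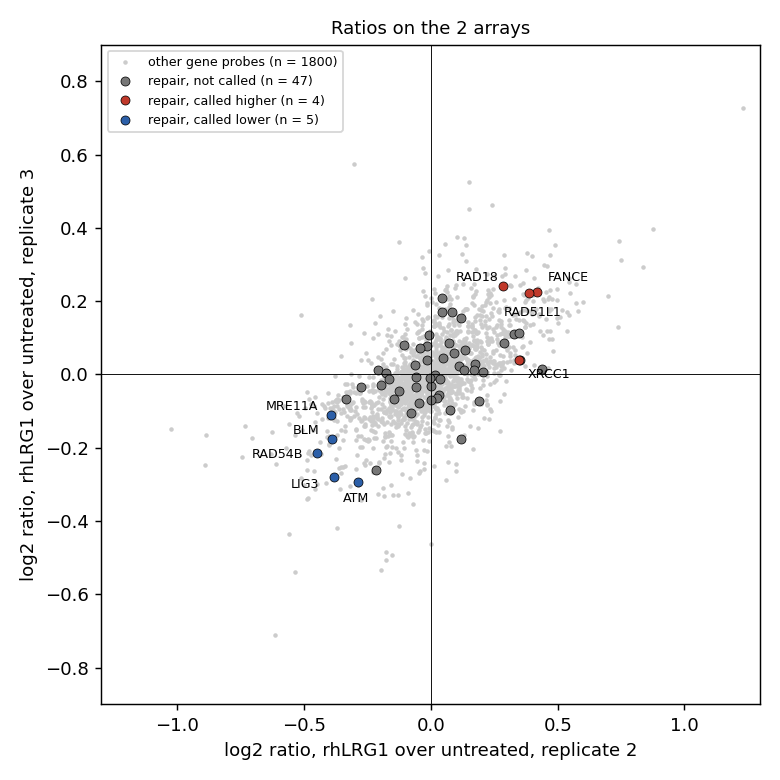
The log2 ratio of rhLRG1-treated over untreated cells on replicate 2 (x axis) is plotted against that on replicate 3 (y axis), each point a probe, for 1800 other gene probes in light grey and the 56 repair probes in dark grey (not called), red (called higher) and blue (called lower). The 9 called probes had the same sign on both arrays and lay inside the cloud of the other gene probes.

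In base excision and single-strand break repair, 2 of 8 probes of 7 genes were called (25%, beside 13.4% of all gene probes). The probe called higher was XRCC1 and that called lower was 1 of the 2 LIG3 probes, and the median ratio was 0.035. XRCC1, the scaffold that holds LIG3 at single-strand breaks, had normalized log2 intensities of 6.02 and 7.77 in rhLRG1-treated cells of replicates 2 and 3, against 5.68 and 7.73 in untreated cells. The arrays differed more than the groups did, and the ranges of the groups overlapped. Its ratios were 0.35 and 0.039, with a mean of 0.19 (SE 0.087, n = 2 arrays; limma, adjusted p = 0.263) and a Z ratio of 3.13. This is the largest Z ratio in size among the repair probes, and it belongs to a probe close to background. The foreground was 1.14 and 1.10 times the local background in the rhLRG1-treated samples and 1.23 and 1.26 times in the untreated samples, and the probe had rank 23 from the dimmest among the 1856 gene probes. All of the 25 dimmest probes were called higher, with Z ratios between 2.22 and 3.26. The part of the dim signal in the call of XRCC1 was not tested. Without replicate 2 its Z ratio was 1.48, and from the loess-normalized channels 1.28, so the call was lost under both. Its ratio was 0.074 with print-tip loess, 1.23 with plain subtraction (limma, adjusted p = 0.0203) and 0.97 with the net intensities (limma, adjusted p = 1.46e-08).

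LIG3, the ligase that partners XRCC1, is on the array as 2 probes that pointed opposite ways. The probe BC009026 read 8.12 and 8.12 in rhLRG1-treated cells, against 8.51 and 8.40 in untreated cells. Both treated samples lay below both untreated samples. Its mean ratio was -0.33 (-0.38 and -0.28; SE 0.061, n = 2 arrays; limma, adjusted p = 0.143) and its Z ratio -1.98, which was -1.46 without replicate 3 and -1.32 with plain subtraction of the background, where the mean ratio was -0.62. The other probe, NM_013975, read 7.86 and 8.28 in rhLRG1-treated cells and 7.69 and 8.25 in untreated cells, with a mean ratio of 0.10 (SE 0.065; limma, adjusted p = 0.397) that became -0.074 under median centring. It was not called (Z ratio 0.364). The accession BC009026 was not matched in the RefSeq table, so the stretch of LIG3 that each probe reads is unknown here.

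LIG1, the ligase that joins Okazaki fragments and long repair patches, read 10.20 and 9.56 in rhLRG1-treated cells, against 10.16 and 9.35 in untreated cells. Each array had the treated sample above the untreated one, but the groups overlapped. The mean ratio was 0.13 (0.045 and 0.21; SE 0.067, n = 2 arrays; limma, adjusted p = 0.316) and the Z ratio 0.959, with a call only without replicate 2 (1.63). Of the other members of the route, OGG1, the glycosylase that removes oxidised guanine, had a mean ratio of 0.11. APEX1, the endonuclease that cuts at abasic sites, stood at -0.086, UNG, which removes uracil, at -0.092, and the gap-filling polymerase POLB at -0.030 (0.24 under median centring). None of these was called.

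**Figure D2:**
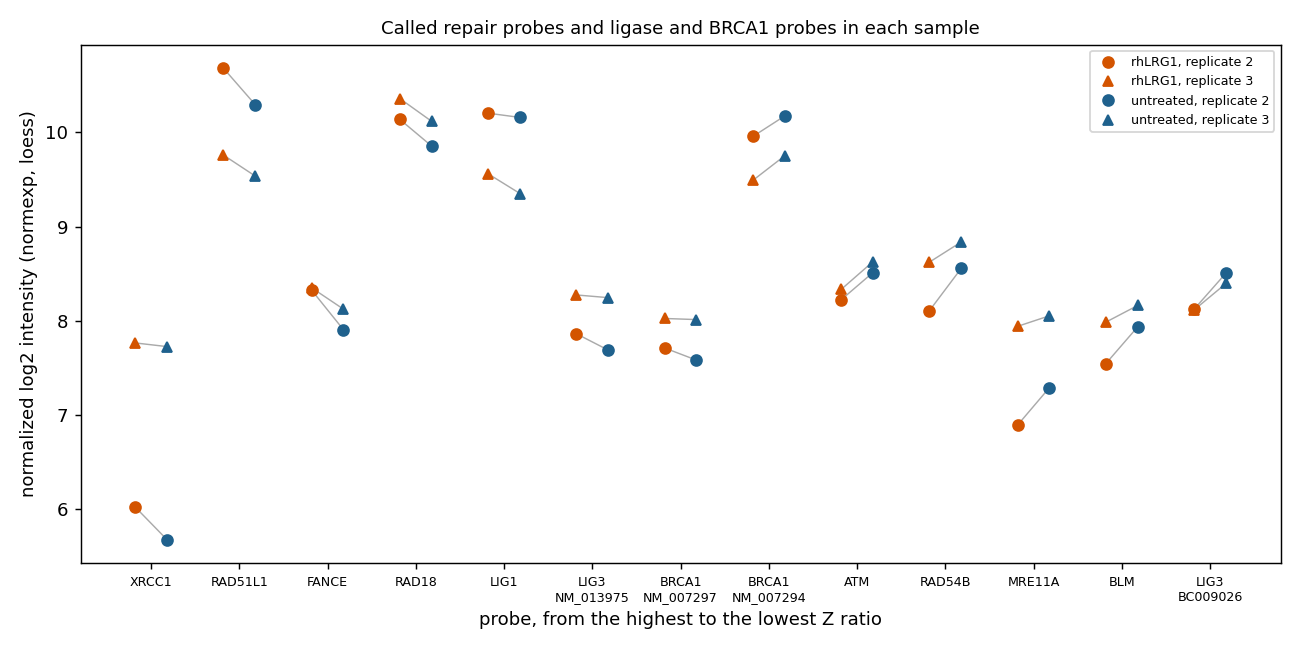
Normalized log2 intensities (y axis) of the 9 called repair probes and of the further probes of LIG1, LIG3 and BRCA1 (x axis, in order of falling Z ratio) are shown for rhLRG1-treated cells in orange, to the left of untreated cells in blue, with circles for replicate 2, triangles for replicate 3 and a grey line joining the samples of an array. FANCE and RAD18 in rhLRG1-treated cells lay above untreated cells in both samples, ATM and LIG3 BC009026 lay below, and the groups of the other probes overlapped.

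ATM, the kinase that is activated by breaks of both strands and starts the checkpoint, was called lower. It read 8.22 and 8.33 in rhLRG1-treated cells, against 8.51 and 8.63 in untreated cells, with no overlap. The ratios of -0.29 and -0.29 were the most alike of the 5 probes called lower. The spots of ATM differed more, at -0.14 and -0.44 on replicate 2 and -0.18 and -0.41 on replicate 3. The mean ratio was -0.29 (SE 0.057, n = 2 arrays; limma, adjusted p = 0.143) and the Z ratio -1.68. The Z ratio was -1.03 without replicate 3, -0.648 with plain subtraction and -1.37 with the deposited net intensities. RAD17, which loads the checkpoint clamp, and RAD1, a part of that clamp, had mean ratios of -0.15 (SE 0.077) and -0.098 (SE 0.074) and were not called. All 3 checkpoint probes thus had a mean below 0, under loess, median centring and print-tip loess alike, although RAD1 stood at 0.013 on replicate 3. The foreground of RAD17 was 1.36 and 1.33 times the background in rhLRG1-treated cells.

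Homologous recombination, the route with the most probes, had 1 probe called higher and 3 lower among 14 probes of 13 genes (28.6%, beside 13.4% of all gene probes). Its median ratio was 0.00031, with 7 probes above 0 and 7 below, and 5 above and 9 below under median centring. At an unadjusted limma p under 0.05 stood 6 of the 14 probes (42.9%, beside 23.3% of all gene probes), 2 above and 4 below 0. RAD54B, a motor protein that aids strand exchange, read 8.11 and 8.62 in rhLRG1-treated cells, against 8.56 and 8.84 in untreated cells. Both arrays had the treated sample lower, by more on replicate 2. The mean ratio was -0.33 (-0.45 and -0.21; SE 0.076, n = 2 arrays; limma, adjusted p = 0.143) and the Z ratio -1.87, but -0.657 with plain subtraction and -1.44 with the net intensities. The files give the spots named RAD54B the description of another gene, fibrinogen silencer binding protein, while the accession matches RAD54B.

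BLM, the helicase lost in Bloom syndrome, read 7.55 and 7.99 in rhLRG1-treated cells and 7.94 and 8.16 in untreated cells. The mean ratio was -0.28 (-0.39 and -0.18; SE 0.073, n = 2 arrays; limma, adjusted p = 0.145) and the Z ratio -1.90. Under median centring this ratio was -0.48 and with plain subtraction -0.59. BLM alone was beyond 1.5 under each of the 7 ways of computing the Z ratio that were run. All 7 drew on the same 2 arrays or on 1 of them. The ranges of the groups overlapped for BLM. Its foreground was under 2 times the background in the rhLRG1-treated sample of replicate 3, so a filter at that limit removed the probe. The nuclease MRE11A (MRE11) and its partners RAD50 and NBS1 (NBN) form the complex that first binds broken ends, and the ratios of the 3 differed in sign. MRE11A read 6.90 and 7.94 in rhLRG1-treated cells, against 7.29 and 8.05 in untreated cells, with a mean ratio of -0.25 (-0.40 and -0.11; SE 0.084, n = 2 arrays; limma, adjusted p = 0.176). It was called lower (Z ratio -1.88), but not without replicate 2 (-1.04). Its ratio was -0.54 under median centring and -0.61 with plain subtraction, and its foreground in rhLRG1-treated cells was 1.57 and 1.44 times the background. NBS1 read 7.97 and 8.08 in rhLRG1-treated cells, against 7.64 and 7.97 in untreated cells, a mean ratio of 0.22 (SE 0.073, n = 2 arrays; limma, adjusted p = 0.178) with a Z ratio of 1.07. The ratio of NBS1 was 0.042 under median centring and 0.58 with the net intensities (limma, adjusted p = 5.03e-06). RAD50 had a ratio of 0.066, or -0.11 under median centring, and neither it nor NBS1 was called.

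RAD51L1, now named RAD51B, which acts early in strand exchange, was the probe of this route called higher. It read 10.68 and 9.76 in rhLRG1-treated cells, against 10.30 and 9.54 in untreated cells. The treated sample was the higher one on each array, and the arrays lay further apart than the groups. The mean ratio was 0.30 (0.39 and 0.22; SE 0.067, n = 2 arrays; limma, adjusted p = 0.143) and the Z ratio 1.85. XRCC2 and XRCC3, of the same protein family, had ratios of 0.090 (-0.18 under median centring) and -0.11. With no background correction, plain subtraction and the deposited net intensities, the Z ratio of RAD51L1 was 1.32, 1.08 and 1.19.

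BRCA1 is represented by 2 transcript accessions. The probe NM_007294 read 9.96 and 9.49 in rhLRG1-treated cells, against 10.18 and 9.75 in untreated cells. The treated sample was lower on both arrays, by -0.22 and -0.26, with a mean of -0.24 (SE 0.057, n = 2 arrays; limma, adjusted p = 0.145). The mean was -0.15 under median centring. It was not called (Z ratio -1.31), but it was without replicate 2 (-2.00) and from the loess-normalized channels (-1.66). The Z ratio was -0.907 with no background correction, -0.255 with plain subtraction, -0.895 with the net intensities and -0.652 without replicate 3. The probe NM_007297 read 7.71 and 8.03 in rhLRG1-treated cells and 7.58 and 8.01 in untreated cells. Its mean ratio was 0.070 (SE 0.062; limma, adjusted p = 0.528), or -0.13 under median centring, and its Z ratio 0.128. BRCA2, which acts beside BRCA1, stood at 0.031, RAD54L at -0.013 and the helicase WRN, read from 4 spots, at 0.012, and none of these was called.

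FANCE, a subunit of the Fanconi anemia core complex that bridges it to its substrate FANCD2, was called higher. It read 8.33 and 8.35 in rhLRG1-treated cells, against 7.91 and 8.12 in untreated cells, with no overlap. Its mean ratio of 0.32 (0.42 and 0.23; SE 0.070, n = 2 arrays; limma, adjusted p = 0.143) was the highest of the 56, with a Z ratio of 1.71. The Z ratio was 1.34 with no background correction and 1.46 with plain subtraction, and the mean ratio 0.18 under median centring and 0.58 with plain subtraction. Of the other core complex subunits, FANCA had a ratio of 0.19 (SE 0.071; limma, adjusted p = 0.205), FANCC 0.10, FANCF 0.047 and FANCG -0.087, and none was called. The list thus had 4 probes above 0 and 1 below, but 1 and 4 under median centring, where only FANCE stayed above 0. The foreground of FANCF was 1.33 and 1.38 times the background in rhLRG1-treated cells and that of FANCG 1.39 and 1.44 times.

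RAD18, the ubiquitin ligase that modifies PCNA at stalled forks, was called higher as well. It read 10.14 and 10.36 in rhLRG1-treated cells, against 9.85 and 10.12 in untreated cells. The lower treated sample lay just above the higher untreated one. The ratios were 0.28 and 0.24, with a mean of 0.26 (SE 0.057, n = 2 arrays; limma, adjusted p = 0.143) and a Z ratio of 1.64. The Z ratio fell short of 1.5 without replicate 3 (1.33), with no background correction (1.14), with plain subtraction (0.948) and with the net intensities (0.883). POLH and POLK, polymerases that copy past damaged bases, had ratios of -0.0063 (0.048 under median centring) and -0.034 and were not called.

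**Figure D3:**
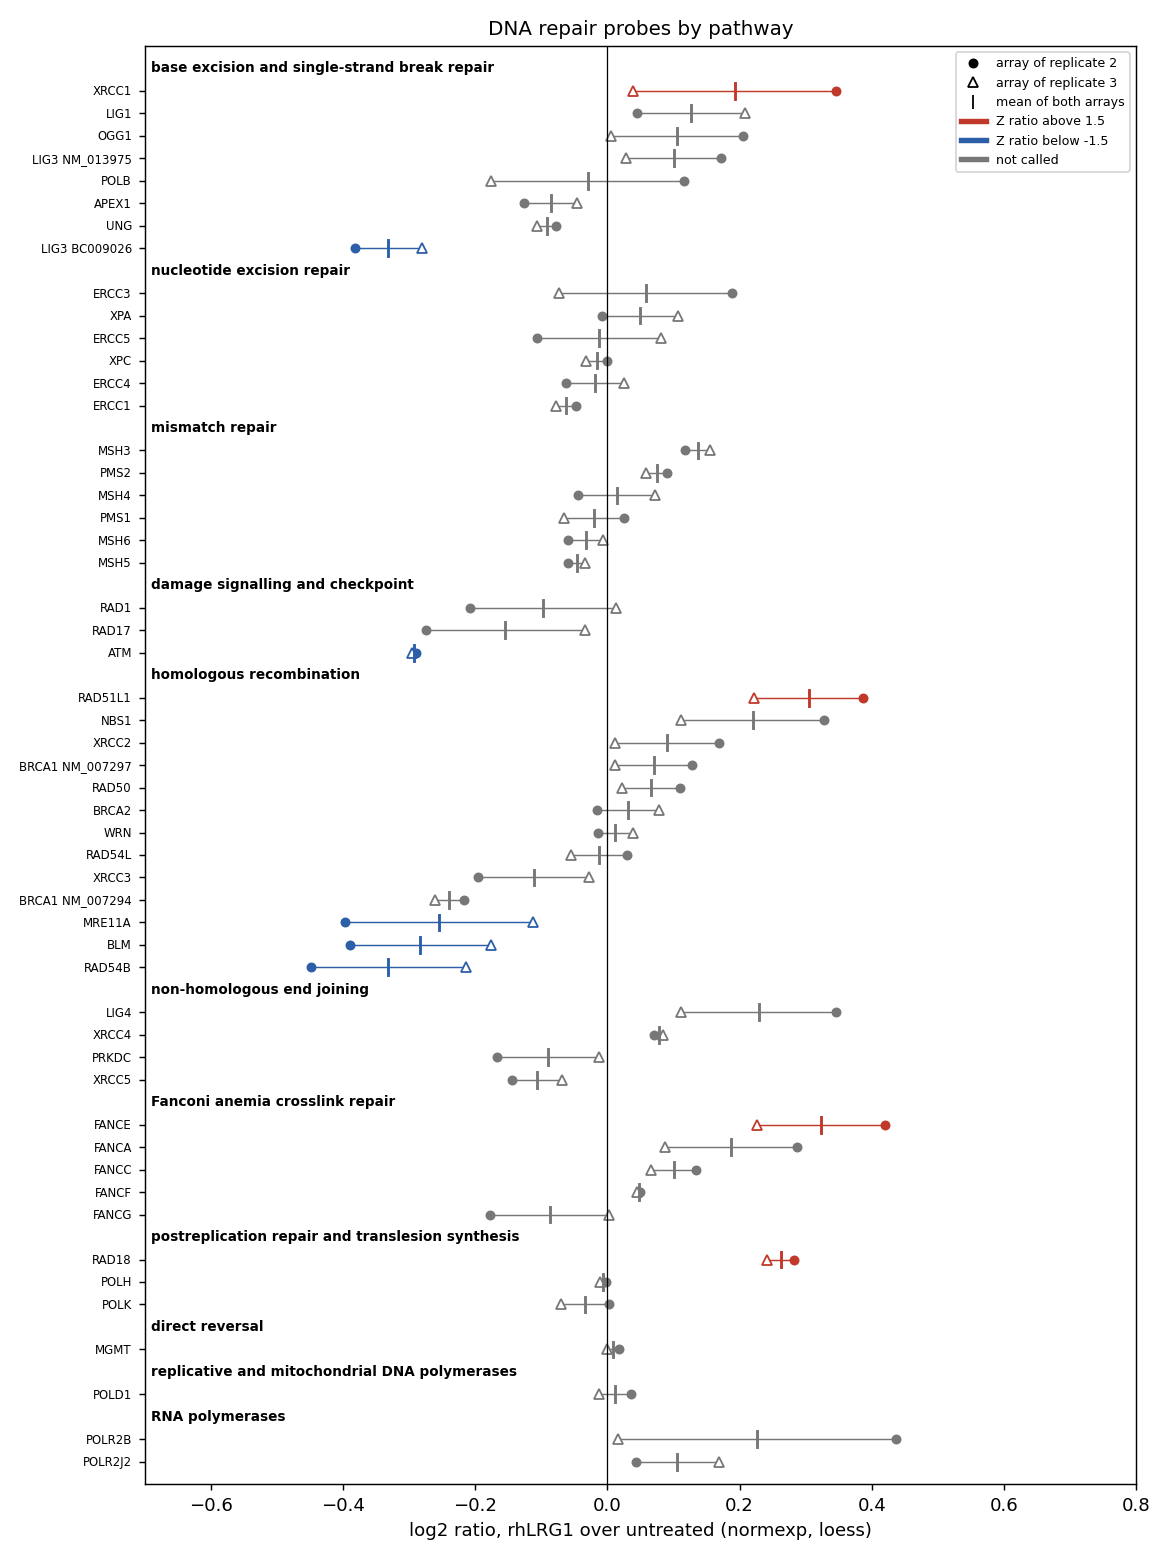
Log2 ratios of rhLRG1-treated over untreated cells (x axis) of 52 of the 56 repair probes, grouped by route (y axis), with a filled circle for replicate 2, an open triangle for replicate 3, a tick for their mean, red and blue for a Z ratio above 1.5 and below -1.5 and grey for no call. Calls stand in base excision repair, checkpoint signalling, homologous recombination, Fanconi anemia and postreplication repair, and the ratios of nucleotide excision repair and mismatch repair straddle 0.

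The remaining routes held no call. In nucleotide excision repair, 3 of 7 probes had a mean ratio above 0 and 4 below, with a median of -0.012. ERCC1, which with ERCC4 makes 1 of the 2 cuts around the lesion, had the lowest, at -0.062 (SE 0.057; limma, adjusted p = 0.541). The damage sensor XPC stood at -0.016, XPA at 0.049, the helicase ERCC3 at 0.058 (-0.10 under median centring), ERCC4 at -0.019 and the endonuclease ERCC5 at -0.012 (0.19 under median centring). Only 3 of these 7 probes had the same sign on both arrays.

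In mismatch repair, 4 of 8 probes had a mean above 0 and 4 below (median -0.0031), and 1 and 7 under median centring. MSH3, which recognises loops of unpaired bases, had the highest ratio, 0.14 (0.12 and 0.15; SE 0.057; limma, adjusted p = 0.231), which was -0.023 under median centring. PMS2 stood at 0.075 (-0.050 under median centring), PMS1 at -0.020, MSH6 at -0.033, and the meiotic genes MSH4 and MSH5 at 0.014 and -0.047.

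In non-homologous end joining, LIG4, the ligase that joins the ends, read 7.19 and 8.03 in rhLRG1-treated cells, against 6.84 and 7.92 in untreated cells. The mean ratio of 0.23 (0.35 and 0.11; SE 0.076, n = 2 arrays; limma, adjusted p = 0.177) turned to -0.054 under median centring. LIG4 was not called (Z ratio 0.850), but it was from the net intensities (2.53) and the loess-normalized channels (1.54), at a foreground of 1.81 and 1.74 times the background in rhLRG1-treated cells. Its cofactor XRCC4 stood at 0.078, the kinase PRKDC at -0.089 and XRCC5, which encodes the larger Ku subunit, at -0.11 (SE 0.059). MGMT, which removes alkyl groups from guanine without cutting the DNA, had ratios of 0.018 and -0.00030, and the replicative polymerase subunit POLD1 0.036 and -0.012. The RNA polymerase subunits POLR2B and POLR2J2 had mean ratios of 0.23 (0.44 and 0.016; SE 0.11) and 0.11 (SE 0.063) and were not called. Without these 2 probes the calls were 9 of 54 (16.7%, beside 13.4% of all gene probes).

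ERCC6, the chromatin remodeller of transcription-coupled repair, is not among the 56 probes, because the spots of its accession NM_000124 carry the name PGBD3, a gene that lies within ERCC6. That probe read 7.24 and 7.97 in rhLRG1-treated cells, against 7.51 and 8.04 in untreated cells. Its mean ratio was -0.17 (-0.27 and -0.073; SE 0.071, n = 2 arrays; limma, adjusted p = 0.227) and its Z ratio -1.35, which was -1.53 without replicate 3. Transcripts that join both genes are known, and which of them the probe reads is unknown here. With it, 24 further repair genes that the name rule missed were measured. Of these, 1 was called higher and 1 lower (8.33%), beside the 13.4% of the whole array.

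BARD1, the partner of BRCA1 in a ubiquitin ligase, was the gene called lower. It read 12.52 and 12.74 in rhLRG1-treated cells, against 13.00 and 12.96 in untreated cells, with no overlap. The mean ratio was -0.35 (-0.49 and -0.21; SE 0.081, n = 2 arrays; limma, adjusted p = 0.143) and the Z ratio -2.14, against -1.32, -1.38 and -1.10 with no background correction, plain subtraction and the net intensities. Under median centring the ratio was -0.012 (limma, adjusted p = 0.929). DDB2, a damage sensor of nucleotide excision repair, had a ratio of 0.26 (SE 0.073) and a Z ratio of 1.07. The flap endonuclease FEN1 stood at -0.18 (SE 0.057), PARP1 at 0.16 (SE 0.074), PCNA at -0.074 and XRCC6, listed under the older name G22P1, at -0.030, and none was called.

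The repair probes were dimmer than the array, with a median log2 brightness of 8.21 beside 8.79. Of the 56, 25 fell in the dimmest, 20 in the middle and 11 in the brightest of 3 equal parts of the array. Calls over the whole array were concentrated among dim probes, at 23.3%, 9.22% and 7.59% of these parts. Of the repair probes, 12%, 20% and 18.2% were called, which is 3, 4 and 2 probes. Restricted to probes with a foreground of at least 2 times the background in every sample, 36 repair probes remained and 6 were called (16.7%), beside 9.08% of the 1388 gene probes left. These were LIG3, ATM, RAD54B, FANCE, RAD51L1 and RAD18, while XRCC1, MRE11A and BLM were removed.

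**Figure D4:**
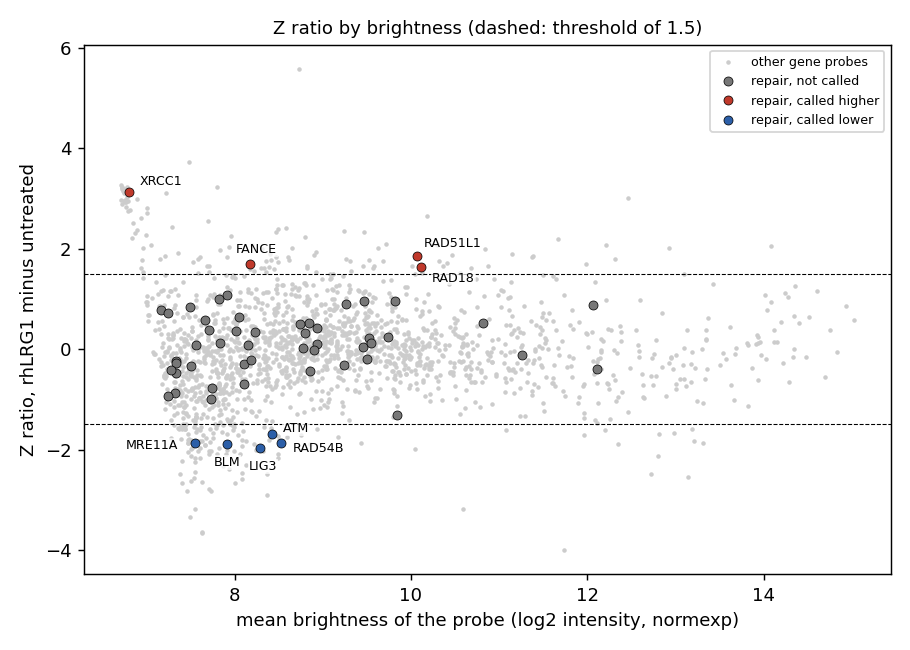
The Z ratio of rhLRG1-treated minus untreated cells (y axis, dashed lines at 1.5 and -1.5) is plotted against the mean log2 intensity of each probe (x axis), with other gene probes in light grey and repair probes in dark grey, red (called higher) and blue (called lower). XRCC1 sits in the narrow arm of very dim probes with high Z ratios, and FANCE, RAD51L1 and RAD18 lie at higher brightness just beyond the threshold.

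The calls depended on how the intensities were treated. Under 7 ways of computing the Z ratio, 15 repair probes were beyond 1.5 at least once. BLM was beyond it in 7, MRE11A in 6, FANCE, RAD54B, XRCC1 and LIG3 BC009026 in 5, ATM and RAD51L1 in 4 and RAD18 in 3. The other 6, BRCA1 NM_007294, LIG4, LIG1, NBS1 and RAD17 among them, were beyond it in 1 or 2 and not with the values given above. From the deposited net intensities 8 probes were called (14.3%, beside 11.9% of all gene probes), 5 of which were among the 9. Plain subtraction gave 5 calls (8.93%, beside 10.2% of all gene probes), 3 of them among the 9. The limma calls moved further. With no background correction 14 repair probes passed an adjusted p of 0.05 (25%, beside 23.3% of the array), with plain subtraction 17 (30.4%, beside 20.4%), with no normalization 17 (30.4%, beside 27.1%) and with the net intensities 22 (39.3%, beside 32.5%). All 9 probes called by the Z ratio were among those 14.

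**Figure D5:**
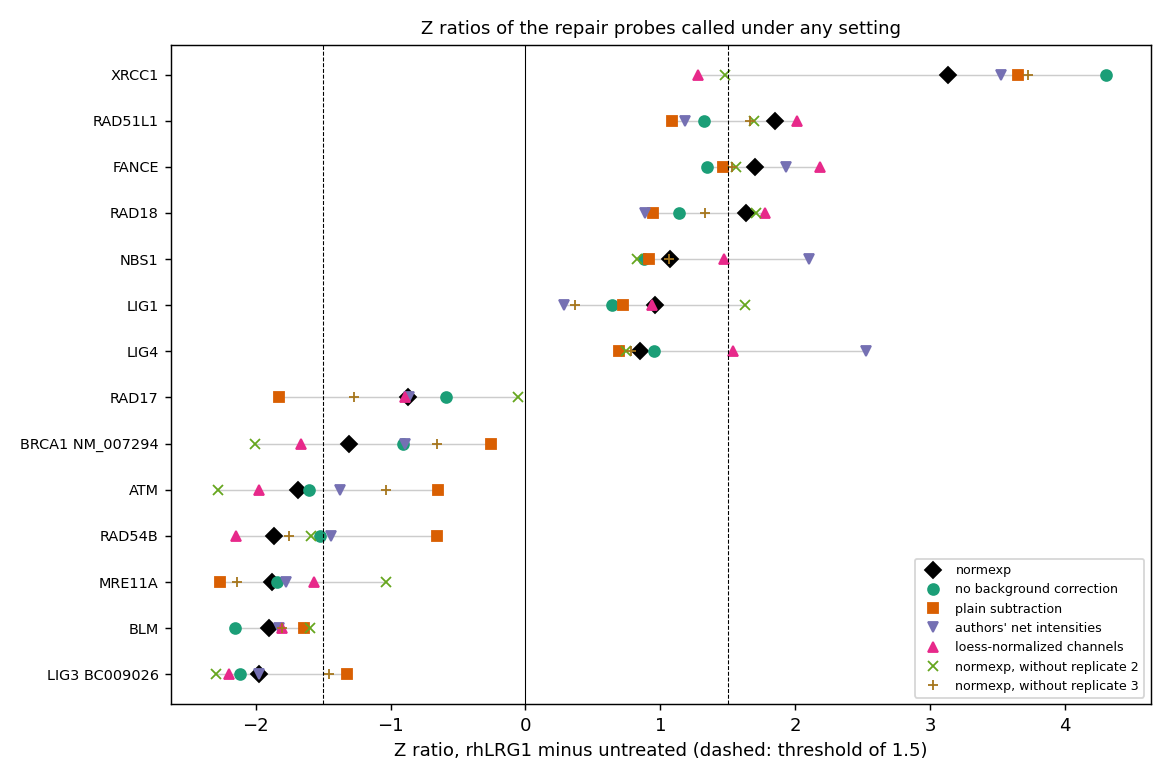
Z ratios of rhLRG1-treated minus untreated cells (x axis, dashed lines at 1.5 and -1.5) of 14 of the 15 repair probes beyond the threshold under any of 7 ways of computing them (y axis, by probe), with a symbol for each way as in the legend. No probe drawn crossed from above 0 to below it, and the symbols of 13 of the 14 probes drawn lay on both sides of a threshold.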

How the data were processed

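RNA of 2 rhLRG1-treated and 2 untreated cultures was hybridised pairwise to 2 arrays, and the paper's methods state more cultures than are analysed here. The authors deposited, for each spot, the scanned foreground intensity, the local background with its SD, and a net intensity, which is foreground minus background with a further scaling of the rhLRG1 channel that varies with brightness. The methods name genArise and a Z-score, the submitters' processing notes R 4.2.2. For the treated sample of replicate 3, the free-text description repeats that of replicate 2, and the title was followed.

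Foreground and background intensities were treated with limma 3.58.1 in R 4.3.3 (normexp with offset 50, loess within arrays, 54 control oligonucleotide spots at weight 0), and spots of an accession were averaged. The net intensities served as an alternative and were checked against the deposited tables. Array ratios were fitted with lmFit and eBayes, and p-values were adjusted by Benjamini-Hochberg across the 1856 gene probes. The ratio within an array pairs the samples of a replicate number. Their deviations from the group means correlated at 0.971 after loess within arrays. As these samples share the spots of an array, this does not show that the cultures were paired. Of the 56 repair probes, 55 matched RefSeq names by accession. The number of arrays limits the precision. Each SE and p-value rests on the probe's spread between the 2 arrays, drawn by eBayes toward that of all gene probes. No spread beyond these 2 arrays is measured. The calculations were tested on simulated data. The repair genes, their routes and the gene lists were chosen with earlier results of these data known.

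The genes named are all repair probes called by the Z ratio, the markers LIG1, LIG3, XRCC1, ERCC6 and BRCA1, the highest and lowest ratio of each route and genes with several probes, and of the further repair genes those called. The other members of the routes were added once their values had been seen, to describe each route. Some genes that these choices take are counted but not reported here. The alternatives were other background corrections and normalizations, the net intensities, filters on dim probes, each replicate left out, unpaired samples, a robust variance model and Z ratios from loess-normalized channels. The count of adjusted p-values under each of these and the filter at 2 times the background were added after seeing the data.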

Additional observations from a re-analysis of the deposited data

How the results depend on the processing

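By the Z ratio 9 repair probes were called (16.1%, beside 13.4% of all gene probes). With plain subtraction 5 were called (8.93%, beside 10.2% of all gene probes), 3 of the 9 and 2 others. With replicate 2 left out 9 were called (16.1%, beside 12.1%), 7 of them among the first 9. With replicate 3 left out 6 were called (10.7%, beside 12.6%), all 6 among the first 9. Without replicate 2 the calls of XRCC1 and MRE11A were lost and LIG1 and BRCA1 NM_007294 gained, and without replicate 3 those of LIG3, ATM and RAD18 were lost. At an unadjusted limma p under 0.05 stood 12 repair probes, against 20 with no background correction, 21 with plain subtraction, 27 with no normalization and 25 with the net intensities (36.6%, 35.8%, 40.5% and 40.1% of all gene probes). The count of 0 at an adjusted p of 0.05 became 14, 17, 17 (all lower) and 22 under these 4 (23.3%, 20.4%, 27.1% and 32.5% of all gene probes). Without the replicate block, that is with the channels taken as unpaired, the unadjusted count was 0 and the adjusted count remained 0. Median centring, print-tip loess and the robust model gave 9, 11 and 12 at an unadjusted p under 0.05. These were 16.1%, 19.6% and 21.4% of the repair probes, beside 18%, 23.8% and 22.8% of all gene probes. The adjusted count was 0 under each. The ratios of XRCC1 (-0.030) and FANCE (-0.13) were below 0 without normalization, both above the median of all gene probes in that setting (-0.31). The cause of these shifts was not tested. The filter at the background plus 2 SD removed no probe. It needed only a single spot above the limit in either channel on each array. With a single array left, limma could not be run. Signal over background limits the dim probes, XRCC1, MRE11A and RAD17 among them.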
